A study of Mus musculus with 30 samples.

Results

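The first day of mammary involution was compared with lactation in wild type mice. The comparison rests on 6 of the 30 arrays of the series, 3 from lactating glands (involution day 0 in the labels) and 3 from glands at day 1 of involution, chosen by their titles alone. Each array is the gland RNA of a separate mouse, per the labels. The other 24 arrays hold wild type glands at days 2 to 4 and E2F3 +/- glands, from mice heterozygous for the cell cycle factor E2F3, at the same times. No strain, age, lactation length or way of starting involution is stated in the labels. The wild type mice have no engineered allele or added agent in the labels, and whole glands were used, so every cell type of the gland contributed RNA.

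Involution is the regression of the milk-producing gland after suckling ends. In its first phase milk stays in the alveoli, some secretory cells die and are shed, and the gland can still return to lactation if suckling resumes. Prolactin acting through Stat5 maintains the lactating state, and Stat3, activated by leukaemia inhibitory factor, is the transcription factor best known for driving the switch to involution in mice.

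Each value is the log2 ratio of a gland's signal to that of a common mouse reference RNA, centred so that 0 is the array's median. Such a ratio compares 1 probe between glands and says nothing of how abundant a gene is beside another gene. The label of the tissue was matched by its defining genes: the milk proteins Csn3 (kappa-casein) and Lalba (alpha-lactalbumin) read between 10.7 and 12.5 in the 3 lactating glands. Missing values made up 5.0% to 22% of the lactation arrays and 1.0% to 12.3% of the day 1 arrays, with the most in lactation replicate 1 and the fewest in day 1 replicate 3. Over 3968 probes on all 30 arrays, arrays of the same group correlated at 0.929 to 0.969 and arrays of different groups at 0.663 to 0.730, across probes, which are not independent replicates.

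After 1 day of involution a large share of the tested probes differed from lactation. Of 5010 probes, 1839 (36.7%) passed at a limma adjusted p under 0.05, 926 higher at day 1 (18.5%) and 913 lower (18.2%). At least 2-fold changes made up 595 of the increases and 643 of the decreases, at least 8-fold changes 49 and 80, and at least 32-fold changes 6 and 6. The median fold among passing probes was 2.26 for increases and 2.59 for decreases, and the median difference of all tested probes was -0.07. Of 4422 probes with values on all 6 arrays, 64.9% had day 1 glands that did not overlap the lactating glands, 30.9% above them and 34.0% below. Without centring the arrays, the median of all tested probes moved up to 0.05, and 1105 of 1832 passing probes (60.3%) were higher, against 50.4% with centring.

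**Figure D1:**
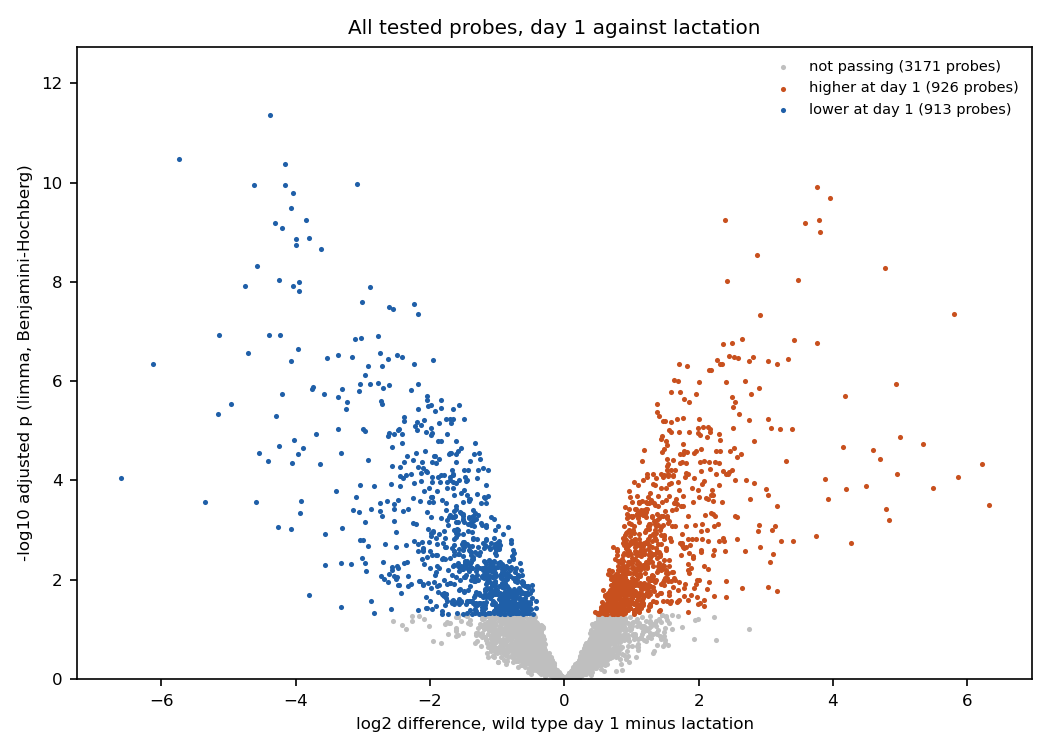
Each point is 1 of 5010 tested probes, placed by its log2 difference (day 1 minus lactation, x axis) and the -log10 of its limma adjusted p (y axis). The 926 higher and 913 lower probes are coloured, and the probes that did not pass are grey.

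Fatty acid synthesis fell as a block. Of 17 tested genes of fatty acid synthesis and desaturation, 16 fell and 0 rose, with a median log2 difference of -3.96, against 18.2% of all tested probes lower. The desaturase Fads1, which makes polyunsaturated fatty acids, read 4.58, 4.73 and 4.93 in the lactating glands and -1.25, -1.47 and -0.25 at day 1. That is a 53.1-fold fall (log2 -5.73 ± 0.35, standard error, adjusted p = 3.32e-11), and the groups lay more than 4 log2 units apart. Its partner Fads2 fell 27.1-fold and the elongase Elovl5, with 4.43, 4.95 and 4.84 against 0.18, 0.25 and 0.66, fell 20.8-fold (-4.38 ± 0.24, adjusted p = 4.32e-12).

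The enzymes that supply and join the carbon units fell with them. Acly, which makes cytosolic acetyl-CoA from citrate, fell by 4.29 ± 0.59, the carboxylases Acaca and Acacb by 3.96 ± 0.43 and 5.14 ± 0.54, and the synthase Fasn by 4.55 ± 0.71. Olah, the thioesterase that releases the medium-chain fatty acids typical of milk, read 4.93, 7.96 and 6.84 in lactation and 1.39, -0.37 and 2.66 at day 1, a fall of 5.35 ± 1.03 with a wide spread in both groups. Srebf1, the transcription factor that induces many of these genes, fell by 3.36 ± 0.37 (adjusted p = 3.02e-07). Pank3, a kinase of coenzyme A synthesis outside the list, fell by 4.31 ± 0.33. The single member that did not pass was the acyl-CoA synthetase Acsl3 (-0.25).

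Uptake of fatty acids and the making of triglyceride were hit unevenly. Of 12 tested genes, 7 fell and 0 rose, with a median of -1.38, beside 18.2% of all tested probes lower. Fabp3, the carrier of fatty acids in lactating epithelium, read 10.73, 10.19 and 9.08 against 3.50, 3.15 and 4.97, a 69.5-fold fall and the largest among named genes with values on all 6 arrays. Lpl, the lipase that frees fatty acids from blood lipoproteins, fell by 4.03 ± 0.37, Cd36, a fatty acid receptor, by 2.62 ± 0.32, and Lpin1, the phosphatase that makes diacylglycerol, by 4.71 ± 0.52. The committed acyltransferase Gpam (-0.24 ± 0.45, adjusted p = 0.679) and the last enzyme of triglyceride synthesis, Dgat1 (-0.21 ± 0.29, adjusted p = 0.570), did not pass, and their groups overlapped.

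Cholesterol synthesis fell more mildly. Of 9 tested genes 8 fell and 0 rose, with a median of -1.36, beside 18.2% of all tested probes lower. Mvd, of the mevalonate pathway, fell 6.53-fold (-2.71 ± 0.35), Fdps, which makes farnesyl diphosphate, 3.01-fold, and Sqle, the squalene oxidase, 2.33-fold. In the lactating glands Mvd read 2.03, 2.00 and 2.18, and at day 1 it read -0.89, -0.35 and -0.66. Their regulator Srebf2 was the member that did not pass (0.41).

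**Figure D2:**
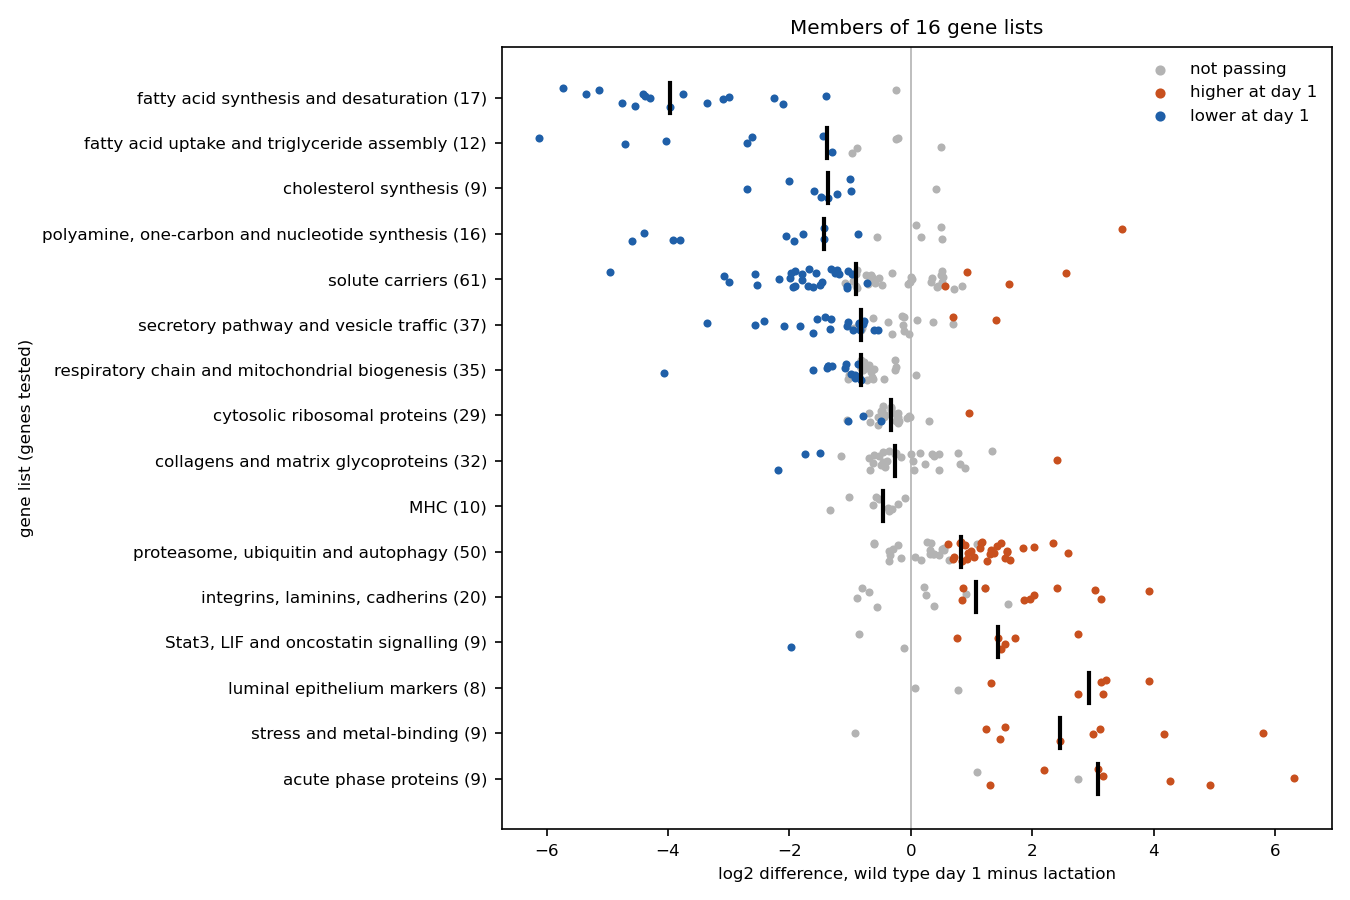
Log2 differences (day 1 minus lactation, x axis) of the tested genes of 16 gene lists (y axis, number tested in brackets), 1 point per gene and a black bar at the list's median. Fatty acid synthesis sits lowest with a median of -3.96, and acute phase proteins sit highest with 3.09.

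The milk proteins Lalba and Csn3 did not pass at day 1. Lalba read 11.10, 11.97 and 11.41 in lactation and 10.04, 11.51 and 10.54 at day 1 (-0.79 ± 0.65, adjusted p = 0.338). Csn3 read 12.45, 10.71 and 11.28 against 11.08, 11.31 and 11.80 (-0.08 ± 0.63, adjusted p = 0.921). Both sets of glands overlapped, so no change could be shown within these errors. Of the 7 tested genes for milk proteins and the milk fat globule, 3 fell and 1 rose, and 0 fell with quantile normalization. Over all tested probes, 18.2% were lower and 18.5% higher. Btn1a1, a butyrophilin of the milk fat globule membrane, read 6.33, 7.58 and 7.73 against 3.07, 2.72 and 5.87 (-3.33 ± 1.22, adjusted p = 0.0361), with ratios bounded by a fixed reference signal. It was lost without lactation replicate 2 or 3 or day 1 replicate 1 or 2 (adjusted p = 0.0934 to 0.134). Xdh, the oxidase that coats milk fat globules, fell by 2.03 ± 0.61 and Cel, the milk lipase, by 2.51 ± 0.73 (adjusted p = 0.0115 and 0.00957). Quantile normalization left Xdh at adjusted p = 0.127 and Cel at 0.0544. Plin2, the coat protein of cellular lipid droplets, went the other way: 4.56, 4.92 and 4.82 in lactation and 5.95, 6.47 and 6.22 at day 1, a rise of 1.45 ± 0.47 (adjusted p = 0.0181). That call was lost without lactation replicate 1 (adjusted p = 0.0585) or day 1 replicate 2 (0.0643).

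Among genes of lactose synthesis and its sugar supply, a few fell. B4galt1, the galactosyltransferase that joins with alpha-lactalbumin to form lactose synthase, fell 12-fold, from 6.16, 6.20 and 5.92 to 2.31, 3.11 and 2.12 (-3.58 ± 0.45, adjusted p = 1.79e-06). The glucose carrier Slc2a1 fell by 1.94 ± 0.31 and the hexokinase Hk2 by 2.17 ± 0.53. These were the 3 members that passed among 14 tested genes of glycolysis and lactose precursors, none of them higher, a share of 21.4% beside 18.2% lower over all tested probes. The falls numbered 5 with quantile normalization and 6 with array weights or with only the 6 arrays in the fit. Ugp2, which makes UDP-glucose, did not pass (-0.30 ± 0.41). Slc50a1, a sugar carrier of the SWEET family, fell 8.49-fold, with 3.34, 3.04 and 3.07 in lactation and -0.24, 0.46 and -0.01 at day 1 (adjusted p = 1.06e-10).

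Mitochondrial genes that passed were mostly lower. Of 21 tested genes of the tricarboxylic acid cycle and pyruvate use, 10 fell and 1 rose. Over all tested probes, 18.2% were lower and 18.5% higher. Pyruvate carboxylase (Pcx) fell by 2.77 ± 0.29, the acetyltransferase of pyruvate dehydrogenase (Dlat) by 2.48 ± 0.36 and citrate synthase (Cs) by 1.83 ± 0.27, and Got1, the cytosolic aspartate aminotransferase, fell by 3.30 ± 0.41. Dld, the dehydrogenase subunit of pyruvate dehydrogenase, did not pass (-0.71, adjusted p = 0.0706). The member that rose was Idh2, a mitochondrial NADP-dependent isocitrate dehydrogenase (1.23 ± 0.29, adjusted p = 0.00174). Among 35 tested genes of the respiratory chain and mitochondrial biogenesis, 14 fell and 0 rose, with a median of -0.82. Those falls made up 40.0% of the list, beside 18.2% of all tested probes lower. The complex I subunit Ndufv3 fell by 1.61 ± 0.32 and the ATP synthase subunit Atp5o by 1.36 ± 0.34. That count depended on the setting: it was 9 without day 1 replicate 3 or without centring, and 27 with only the 6 arrays in the fit. Fatty acid oxidation had Acadl, the long-chain acyl-CoA dehydrogenase, higher by 2.26 ± 0.35 and Acads, its short-chain relative, by 0.92 ± 0.22, while Eci1, an isomerase for unsaturated chains, fell by 1.21 ± 0.33. Of 19 tested oxidation and lipoprotein genes, 4 rose and 2 fell, 31.6% beside 36.7% of all tested probes. The rises numbered 2 without lactation replicate 1 or 3 or day 1 replicate 1 or 2. The falls numbered 1 without lactation replicate 1 or 2 or any day 1 array.

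**Figure D3:**
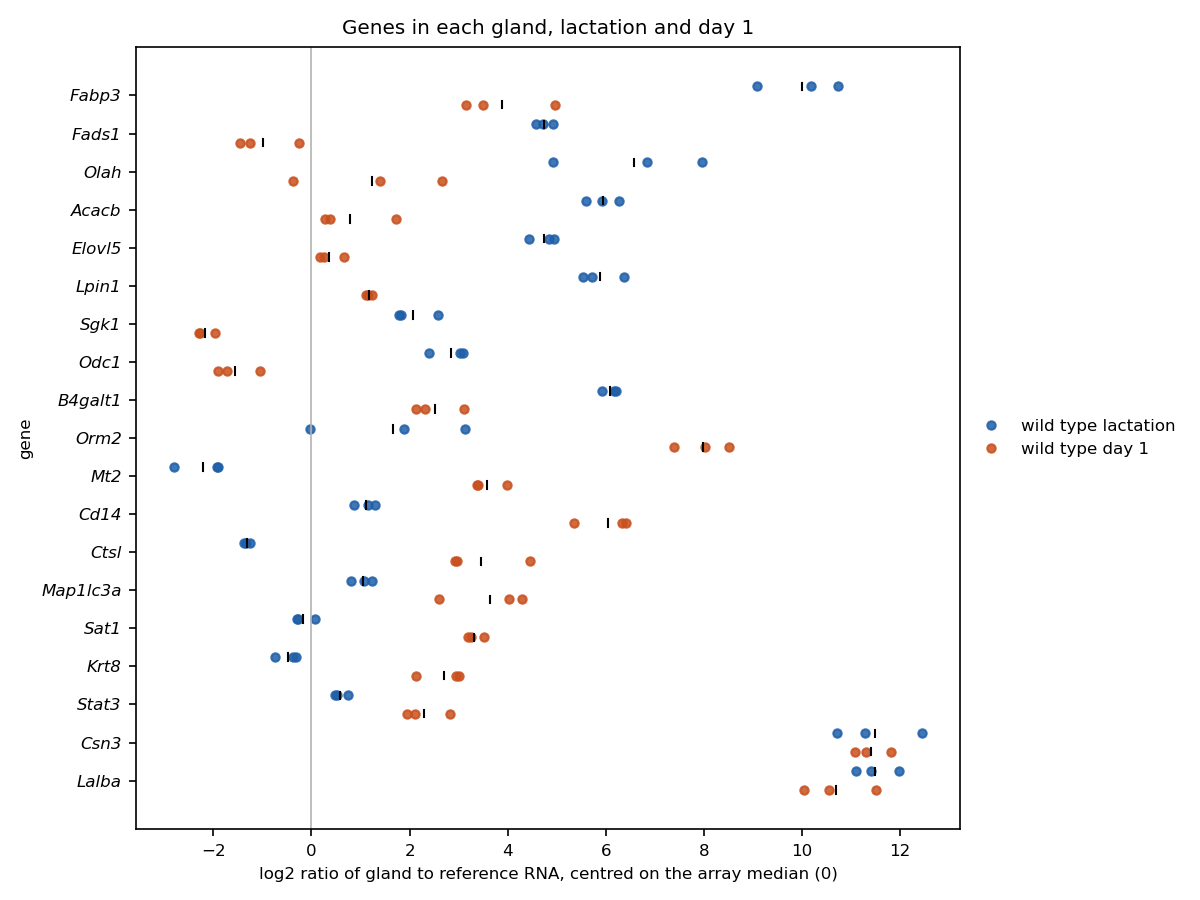
Log2 ratio to the reference (x axis, 0 is the array median) of 19 genes (y axis) in each of 3 lactating and 3 day 1 wild type glands, 1 point per gland and a black bar at the group mean. The groups overlap in Csn3 and Lalba and are apart in the other genes.

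Transport and the secretory route fell broadly. Of 61 tested genes with a solute carrier (Slc) symbol, mostly transporters of small molecules, 28 fell and 4 rose, with a median of -0.90. Over all tested probes, 18.2% were lower and 18.5% higher. Slc9a3r1 and Slc9a3r2, counted by that symbol, are not transporters, and Slc9a3r2 was among the falls. The nucleoside carriers Slc28a3 and Slc29a1 fell by 4.95 ± 0.65 and 2.17 ± 0.27. The reference signal of Slc28a3 appears fixed at a lowest value, so its ratios are bounded, and a further Slc29a1 probe did not pass (-0.75, adjusted p = 0.101). The members that moved up by more than 1 log2 unit were Slc12a2, the sodium, potassium and chloride cotransporter (2.57 ± 0.41), and Slc3a2, the heavy chain of amino acid exchangers (1.62 ± 0.50, adjusted p = 0.0138). The smaller rises of Slc35f5 and Slc35f6 were lost without lactation replicate 1 (adjusted p = 0.111 and 0.104), and 2 carriers rose without that array or without day 1 replicate 1 or 3. Atp2c1, the Golgi pump that loads calcium and manganese, fell by 1.67 ± 0.47, and Slc30a4, the zinc carrier that feeds milk, by 1.21 ± 0.33.

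Within the secretory pathway, 20 of 37 tested genes fell and 2 rose, beside 18.2% of all tested probes lower and 18.5% higher. Rab18, a small GTPase found on lipid droplets and the endoplasmic reticulum, read 3.46, 3.96 and 3.69 against 0.26, 0.22 and 0.55, a 10.3-fold fall (adjusted p = 2.12e-06). Sec23b, of the coat of vesicles leaving the endoplasmic reticulum, fell 5.34-fold, Ssr4, of the translocon-associated complex, 4.24-fold, and Spcs2, of the signal peptidase, 2.52-fold. The 2 that rose were Vamp8 (1.40 ± 0.30) and Stx4a (0.69 ± 0.20), both fusion proteins of the vesicle and plasma membrane. Among 16 tested chaperones and genes of the unfolded protein response, 3 fell and 0 rose (1 rose without lactation replicate 1), namely the oxidase Qsox1 (-3.01 ± 0.76), the disulfide isomerase P4hb (-1.44 ± 0.24) and Edem1 (-1.10 ± 0.29), which directs misfolded proteins to degradation. That share of falls, 18.8%, was near the 18.2% of all tested probes, and the falls numbered 8 with only the 6 arrays in the fit. The stress factor Ddit3 did not pass (0.63 ± 0.34, adjusted p = 0.152).

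Enzymes of polyamine synthesis fell while the enzyme that starts polyamine breakdown rose. Odc1, ornithine decarboxylase and the first step of polyamine synthesis, read 2.40, 3.03 and 3.08 in lactation and -1.73, -1.91 and -1.05 at day 1, a 21.1-fold fall (adjusted p = 1.16e-07). Azin1, which protects that enzyme from degradation, fell by 1.92 ± 0.26 and spermidine synthase (Srm) by 2.05 ± 0.27. Sat1, the acetyltransferase that starts polyamine breakdown, read 0.07, -0.29 and -0.28 against 3.19, 3.51 and 3.25, an 11.2-fold rise (adjusted p = 9.05e-09). In the list of polyamine, one-carbon and nucleotide synthesis, 10 of 16 genes fell, and Sat1 was the 1 that rose. Over all tested probes, 18.2% were lower. Dhodh, the mitochondrial enzyme of pyrimidine synthesis, fell 14-fold (-3.81 ± 0.31, adjusted p = 1.34e-09).

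Many protein degradation genes rose. Of 50 tested proteasome, ubiquitin and autophagy genes, 28 rose and 0 fell, with a median of 0.82, against 18.5% of all tested probes higher. The rises numbered 20 to 27 with 1 array left out. The falls numbered 1 with only the 6 arrays in the fit and 2 with array weights. In the 20S core, 4 of 5 alpha ring genes rose. Psma7 read -0.73, -0.65 and -0.56 in lactation and 1.39, 1.29 and 0.95 at day 1, a 3.62-fold rise, and Psma5 and Psma1 rose 3.01-fold and 2.66-fold (adjusted p = 1.05e-05, 6.76e-06 and 5.04e-06). Among the constitutive beta ring genes 5 of 6 rose, with 3 of 3 ATPases of the 19S cap and 5 of 7 of its other subunits. The 3 beta subunits of the immunoproteasome, Psmb8, Psmb9 and Psmb10, which interferon induces, did not pass (-0.61, -0.30 and -0.17). This grouping by subunit, and the genes named from it beyond the Psma genes, were chosen after their values were seen.

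In autophagy, 6 of 8 genes rose. Map1lc3a, the protein that marks autophagosome membranes, read 1.08, 1.24 and 0.81 in lactation and 4.03, 4.29 and 2.59 at day 1, a 6.05-fold rise (2.60 ± 0.35, adjusted p = 4.49e-06) with day 1 replicate 3 the lowest of its group. Sqstm1, the cargo receptor p62, rose by 2.04 ± 0.34 and Atg7, of the conjugation machinery, by 1.26 ± 0.24. The remaining 18 genes, mostly ubiquitin enzymes, included 5 that rose, beside 18.5% of all tested probes higher.

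**Figure D4:**
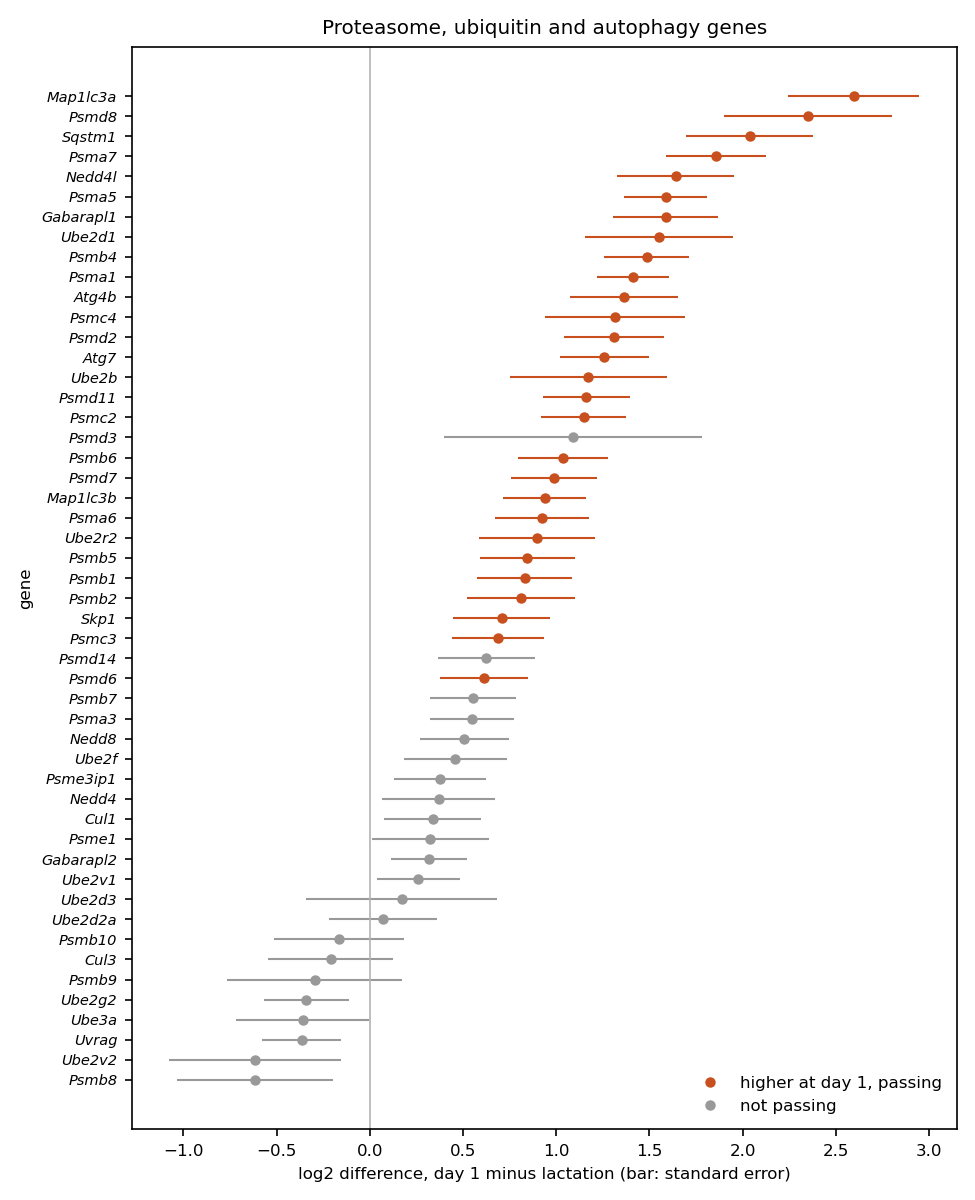
Log2 difference (day 1 minus lactation, x axis) with its standard error for 50 tested proteasome, ubiquitin and autophagy genes (y axis), ordered by size. The 28 genes that passed are coloured and all lie above 0, led by Map1lc3a at 2.60.

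Lysosomal genes split. Of 29 tested, 6 rose and 3 fell, near the share of all probes that passed. The rises numbered 10 with quantile normalization, 11 with only the 6 arrays in the fit and 13 with array weights, and the falls 5 in the last 2 settings. The cathepsin Ctsl, a cysteine protease, read -1.33, -1.38 and -1.25 in lactation and 2.98, 2.92 and 4.46 at day 1, a 27.3-fold rise (4.77 ± 0.42, adjusted p = 5.33e-09). Ctsd and Ctsb, the best known cathepsins of involution, did not pass (0.81 ± 0.33, adjusted p = 0.0564, and 0.66 ± 0.31, adjusted p = 0.0951). The cathepsin Ctsc fell by 2.06 ± 0.30 and Gm2a, the activator of ganglioside breakdown, by 4.02 ± 0.60.

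Stress and metal-binding genes were among the strongest increases. Of 9 tested, 8 rose and 0 fell, with a median of 2.46, beside 18.5% of all tested probes higher. The metallothionein Mt2, a small binder of zinc and copper, read -1.93, -1.91 and -2.81 in lactation and 4.00, 3.39 and 3.37 at day 1, a 55.7-fold rise (adjusted p = 4.36e-08). Mt1 rose 18.1-fold, from 0.14, 0.36 and -0.27 to 4.67, 4.29 and 3.80. Neither gene had a gland within 3 log2 units of the other group. Hmox1, the haem oxygenase, rose by 2.46 ± 0.38 and the small heat shock protein Hspb1 by 3.00 ± 0.54.

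Metallothionein promoters are known to carry metal response elements, which the zinc sensor Mtf1 reads. The promoters of both genes are shown because they moved together. They come from RefSeq (GRCm38.p6), from 250 bases before to 50 after the first listed start site. The core TGCACNC or TGCGCNC (N is any base), searched on both strands, is in capitals.
Mt2, chr8:94172368-94172667, plus strand: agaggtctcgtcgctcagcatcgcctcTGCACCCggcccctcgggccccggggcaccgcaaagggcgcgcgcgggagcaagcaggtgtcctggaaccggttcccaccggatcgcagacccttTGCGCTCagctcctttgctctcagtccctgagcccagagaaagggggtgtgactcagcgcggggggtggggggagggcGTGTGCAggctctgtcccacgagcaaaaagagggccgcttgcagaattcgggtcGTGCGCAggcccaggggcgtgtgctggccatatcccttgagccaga
Mt1, chr8:94178839-94179138, plus strand: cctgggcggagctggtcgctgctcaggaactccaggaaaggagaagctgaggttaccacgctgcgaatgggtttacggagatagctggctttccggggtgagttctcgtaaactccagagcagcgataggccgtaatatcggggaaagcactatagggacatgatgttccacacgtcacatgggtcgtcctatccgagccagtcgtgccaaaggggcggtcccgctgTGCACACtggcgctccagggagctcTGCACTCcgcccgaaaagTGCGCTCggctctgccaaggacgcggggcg
The window of Mt2 holds 4 matches and that of Mt1 holds 3. At least 1 match occurs in 25.6% of 27025 mouse promoters of this length, and in 35.7% of the 2351 that belong to tested genes. A match describes letters and shows no binding.

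Antioxidant genes moved both ways. Of 21 tested oxidoreductase and antioxidant genes, 7 rose and 4 fell, beside 18.5% of all tested probes higher and 18.2% lower. The falls were near the share over all probes. Prdx1, a cytosolic peroxiredoxin, rose by 1.76 ± 0.24, the glutathione reductase Gsr by 1.49 ± 0.38 and the epoxide hydrolase Ephx1 by 2.17 ± 0.36. Its relatives Prdx4 of the endoplasmic reticulum and Prdx3 of mitochondria fell by 2.89 ± 0.27 and 1.39 ± 0.29. Prdx4 read 2.51, 2.72 and 2.71 in lactation and -0.33, -0.32 and -0.08 at day 1, the opposite order to Prdx1.

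In RNA, genes listed for prolactin and Stat5 signalling mostly fell, and those listed for Stat3, LIF and oncostatin signalling mostly rose. The lists hold inhibitors, such as Socs3, as well as activators. The activity of these signals was not measured. Stat5a, the main carrier of the prolactin signal, fell 6.15-fold, from 4.06, 4.36 and 4.03 to 1.18, 2.06 and 1.35 (adjusted p = 3.66e-07). Stat5b fell by 1.51 ± 0.31 and the kinase Akt1 by 1.65 ± 0.29. Of 8 tested genes of prolactin and Stat5 signalling 6 fell, beside 18.2% of all tested probes lower. Jak2 rose slightly (0.83 ± 0.32, adjusted p = 0.0413, n = 2 lactation arrays). The Jak2 difference was 0.24 without lactation replicate 2, and its call was lost without any day 1 array. Cish, a direct Stat5 target, did not pass (-0.39 ± 0.45).

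Of 9 tested genes of Stat3, LIF and oncostatin signalling, 6 rose and 1 fell, beside 18.5% of all tested probes higher and 18.2% lower. With 1 array left out, 4 to 6 rose. Stat3 itself read 0.53, 0.75 and 0.48 against 1.96, 2.83 and 2.11, a 3.27-fold rise (1.71 ± 0.51, adjusted p = 0.0111). Without day 1 replicate 2, its highest gland, the rise was 1.45 with adjusted p = 0.0593. Osmr, the oncostatin M receptor subunit, rose 6.71-fold (n = 2 lactation arrays) and Rela, a subunit of NF-kappaB, 2.82-fold. Nfkbia, the inhibitor that holds NF-kappaB in the cytoplasm, was the member that fell, by 1.97 ± 0.32.

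Socs3, the feedback inhibitor that Stat3 induces, read -1.74, -1.77 and -1.72 in lactation and -0.39, 0.43 and -0.59 at day 1 (1.56 ± 0.29, adjusted p = 2.01e-04). Its promoter is shown because Socs3 is a textbook Stat3 target, with the STAT core TTCNNNGAA in capitals (GRCm38.p6, RefSeq, 250 bases before to 50 after the first listed start site).
Socs3, chr11:117969317-117969616, minus strand: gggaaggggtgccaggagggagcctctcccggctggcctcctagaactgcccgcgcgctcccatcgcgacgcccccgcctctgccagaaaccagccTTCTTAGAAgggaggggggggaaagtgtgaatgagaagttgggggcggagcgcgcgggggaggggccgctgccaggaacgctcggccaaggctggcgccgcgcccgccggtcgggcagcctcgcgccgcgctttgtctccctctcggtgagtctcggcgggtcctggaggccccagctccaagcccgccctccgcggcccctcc
It holds 1 match, and 8.47% of the 27025 promoters hold at least 1, as do 7.06% of the 2351 of tested genes. The match describes letters and shows no binding, and whether Stat3 uses this site was not tested.

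Most acute phase genes rose far. Of 9 tested genes, 7 rose and 0 fell, with a median of 3.09, and 5 to 7 rose with 1 array left out. Over all tested probes, 18.5% were higher. The 2 that did not pass were Orm1 (1.09 ± 0.75, adjusted p = 0.254) and Saa3 (2.75 ± 1.31, adjusted p = 0.0989). Orm2, a plasma carrier protein, read -0.04, 1.89 and 3.13 in lactation and 8.03, 8.50 and 7.40 at day 1, a 79.8-fold rise with the lactating glands widely spread (6.32 ± 1.20, adjusted p = 3.08e-04). Cd14, the receptor for bacterial lipopolysaccharide, rose 30.6-fold, from 1.29, 1.15 and 0.87 to 6.42, 6.34 and 5.36. The serum amyloids Saa2 and Saa1 rose by 4.27 ± 0.99 and 3.17 ± 1.01, and Saa1 was lost without lactation replicate 3 (adjusted p = 0.0926) or day 1 replicate 1 (0.118). Ceruloplasmin (Cp), the copper carrier, rose by 2.19 ± 0.41 on the probe counted and 2.15 on a further one, while another Cp probe did not pass (0.05). The protease inhibitors Slpi and Wfdc12 rose 18.3-fold and 17.7-fold.

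Cd14 is also a macrophage marker, so the macrophage list is given beside it. Of 14 tested macrophage markers 2 rose, Cd14 and the lysosomal Cd68 (1.77 ± 0.42), and 0 fell. That share of 14.3% stands beside 18.5% of all tested probes higher. The mean of the 11 markers measured on all 6 arrays ran from 0.16 to 0.98 in lactation and from 0.76 to 1.37 at day 1, overlapping. Csf1r, Lyz2, C1qb and Tyrobp, chosen after their values were seen, lay between -0.22 and 0.05. No neutrophil or eosinophil marker was tested, and the part of such cells in the acute phase result was not tested. Complement (8 genes) and MHC (10 genes) had 0 members past the threshold by limma, and 1 each at an unadjusted p under 0.05. Complement reached 2 higher with quantile normalization and MHC 2 lower with only the 6 arrays in the fit, or 1 lower without day 1 replicate 1.

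Luminal epithelial markers, mostly keratins and junction proteins, lay higher at day 1. Of 8 tested luminal markers, 6 rose and 0 fell, with a median of 2.94, beside 18.5% of all tested probes higher. Krt8 read -0.73, -0.31 and -0.38 in lactation and 3.01, 2.14 and 2.94 at day 1 (3.17 ± 0.37, adjusted p = 4.50e-07), and its partner Krt18 rose by 2.75 ± 0.38. The mean over the 7 markers measured on all 6 arrays ran from 0.90 to 1.70 in lactation and from 3.50 to 4.11 at day 1. Among single probes with values on all 6 arrays, 30.9% had day 1 glands above the lactating glands. Epcam, an epithelial adhesion protein, did not pass (0.78 ± 0.34, adjusted p = 0.0723). In whole-gland RNA, a change in the share of a cell type cannot be told apart from a change in RNA per cell.

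Markers of other cell types were also read, with 36.7% of all tested probes passing as the comparison. The 4 tested endothelium markers had 1 that rose, the tight junction claudin Cldn5, from 1.77, 2.17 and 3.02 to 5.87, 4.67 and 5.50 (3.03 ± 0.94, adjusted p = 0.0140). It was lost without lactation replicate 1 (adjusted p = 0.0527) or day 1 replicate 1 (0.0553), and 3 of the 4 rose with quantile normalization. The mean of the 3 endothelium markers measured on all 6 arrays, Cldn5 among them, ran from 2.12 to 2.38 in lactation. At day 1 it ran from 2.85 to 4.14, without overlap. Of all probes with values on all 6 arrays, 30.9% had day 1 glands above the lactating glands. Apart from Cldn5, the 3 other tested endothelium markers did not pass. The adipocyte markers Fabp4 and Adipoq read 7.31, 8.23 and 8.55 against 8.22, 7.67 and 8.50, and 3.55, 4.81 and 5.22 against 4.60, 3.94 and 5.91, with overlapping groups. The mean of 7 adipocyte markers ran from 4.37 to 6.07 in lactation and from 4.24 to 5.82 at day 1. Of 8 tested adipocyte markers 1 fell, Cidea (-2.68 ± 0.78), which lactating epithelium also uses in milk lipid secretion in mice, and it was lost without day 1 replicate 2 (adjusted p = 0.0543). Of 16 fibroblast markers 1 rose (Thy1, 1.10 ± 0.31, also the single tested T cell marker), and of 12 skeletal muscle markers 0 passed by limma, 0 also at an unadjusted p under 0.05. The myoepithelial keratin Krt5 did not pass (0.27 ± 0.67), while Lgals7, a galectin of stratified epithelia, rose by 2.88 ± 0.63 (n = 2 lactation arrays).

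Adhesion genes rose beside the keratins, though their list shares Cldn3 and Cdh1 with the luminal markers and Cldn5 with the endothelium markers. Of 20 tested integrins, laminins, cadherins and junction genes, 10 rose and 0 fell, with 6 rises without lactation replicate 1 and 1 fall without lactation replicate 3. Cldn3, a tight junction claudin, rose 15.2-fold (3.92 ± 0.74), with 2.42, 5.12 and 3.94 in lactation and 8.79, 7.86 and 6.59 at day 1. The tetraspanin Cd9 rose by 1.86 ± 0.24 and zyxin (Zyx), of focal adhesions, by 1.97 ± 0.31. Of 32 collagens and matrix glycoproteins 3 fell and 1 rose, 12.5% beside 36.7% of all tested probes. The rises numbered 0 without day 1 replicate 1 and 2 without lactation replicate 1 or 2. The falls were Thbs2 (-2.18 ± 0.36), Col16a1 (-1.75 ± 0.32) and Nid2 (-1.50 ± 0.36). The matrix proteases held 1 large fall, Adamts5, which cleaves aggrecan and versican, from 4.12, 4.00 and 4.23 to -0.44, -0.51 and -0.56 (24.6-fold, adjusted p = 1.13e-10). Mmp3, stromelysin 1, rose by 1.86 ± 0.46.

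A few genes of survival signals and growth factors passed. Igfbp5, which binds the survival factor Igf1, rose by 4.59 ± 0.69 (n = 2 lactation arrays, with ratios bounded by a fixed reference signal), and Igf1 fell by 1.50 ± 0.41. Tgfb3, the transforming growth factor tied to early alveolar cell death in mice, rose 5.62-fold, from 1.18 and 1.08 on the 2 lactation arrays with a value to 3.69, 4.14 and 3.04. Chrdl2, an antagonist of bone morphogenetic proteins, fell 35.7-fold. Of 17 tested apoptosis regulators 2 rose and 4 fell, 35.3% beside 36.7% of all tested probes. Gadd45a, a growth arrest gene, rose by 2.39 ± 0.58 (n = 2 lactation arrays), and Dap and Bnip3 fell by 2.48 ± 0.28 and 1.39 ± 0.35. The falls numbered 2 without day 1 replicate 2, and the rises 1 without lactation replicate 2 or 3 or day 1 replicate 1 or 3. Mcl1 (-0.03 ± 0.25) and Clu (0.91 ± 0.48) did not pass.

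Immediate early and inducible genes, transcription factors among them, split into 10 that rose and 7 that fell of 22 tested. That share of 77.3% stands beside 36.7% of all tested probes, 18.5% higher and 18.2% lower. Sgk1, a kinase that glucocorticoids induce, read 2.58, 1.79 and 1.82 in lactation and -2.26, -2.29 and -1.97 at day 1, an 18.9-fold fall (adjusted p = 9.25e-09). Per1 and Klf9 fell by 2.50 ± 0.60 and 1.76 ± 0.24. The antiproliferative genes Btg2 and Btg1 rose 4.98-fold and 4.81-fold, and Jun, of AP-1, 2.45-fold. Trp53inp1, a p53 target, rose 5.38-fold, from 0.54, 0.39 and -0.07 to 2.83, 2.36 and 2.95.

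Among genes of cell division, the proliferation marker Mki67 fell by 2.67 ± 0.62 (n = 2 day 1 arrays) and the nuclease Fen1 by 1.57 ± 0.38. Of 9 tested E2F targets 1 rose (0 without lactation replicate 2 or day 1 replicate 1 or 2) and 1 fell. That share of 22.2% stands beside 36.7% of all tested probes. E2f1, the family member with a tested probe, did not pass (-0.91 ± 0.39, adjusted p = 0.0745). Of 29 ribosomal protein genes 3 fell and 1 rose, 13.8% beside 36.7% of all tested probes, with a median of -0.33. The falls numbered 11 with quantile normalization or with only the 6 arrays in the fit, 13 with array weights, and 1 without lactation replicate 2 or day 1 replicate 2. The rise was lost without lactation replicate 2 or day 1 replicate 1 or 3. Of 30 splicing genes 7 rose (4 without lactation replicate 2) and 0 fell, 23.3% beside 18.5% of all tested probes higher.

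A few probes had values in 1 group only. On 7 probes all 3 day 1 glands and no lactating gland had a value. They included Cyp24a1, the vitamin D 24-hydroxylase, with 6.46, 4.79 and 5.87 at day 1, and the skin protein Dmkn with 5.61, 3.68 and 5.30. In the reverse direction Drd4, a dopamine receptor, had 4.57, 5.79 and 5.78 in lactation and no value at day 1. What a missing value means is not given in the sources used here, so no fold is stated.

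Day 2 glands were then compared with day 1 glands directly. This test shares the day 1 arrays with the comparison above. Genes named for a large day 1 increase are therefore favoured to fall in it, and those named for a large fall to rise. Of 5010 probes, 2524 passed (50.4%). Day 2 was the higher day for 1147 of them (22.9%) and the lower for 1377 (27.5%). Orm2, at 8.03, 8.50 and 7.40 on day 1, read 5.25, 0.68 and 0.46 on day 2, a fall of 5.85 ± 1.20 with 1 gland well above the other two. Mt2 fell by 3.43 ± 0.57, Cd14 by 2.17 ± 0.60, Ctsl by 2.59 ± 0.42 and Krt8 by 2.03 ± 0.37. Stat3 fell by 1.42 ± 0.51 (adjusted p = 0.0242).

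Genes of milk fat took different courses. Lpl rose again by 2.92 ± 0.37 and Acaca by 2.79 ± 0.43, while Fabp3 (-1.06 ± 0.71, adjusted p = 0.211) and Fads2 (0.07 ± 0.43) did not pass between the days. Odc1 fell further, by 2.13 ± 0.46. The milk proteins, which had not passed at day 1, were lower at day 2: Lalba by 2.18 ± 0.65 and Csn3 by 1.91 ± 0.63 (adjusted p = 0.00904 and 0.0164). Hmox1 (0.55 ± 0.38) and Igfbp5 (0.26 ± 0.62) did not pass between days 1 and 2.

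**Figure D5:**
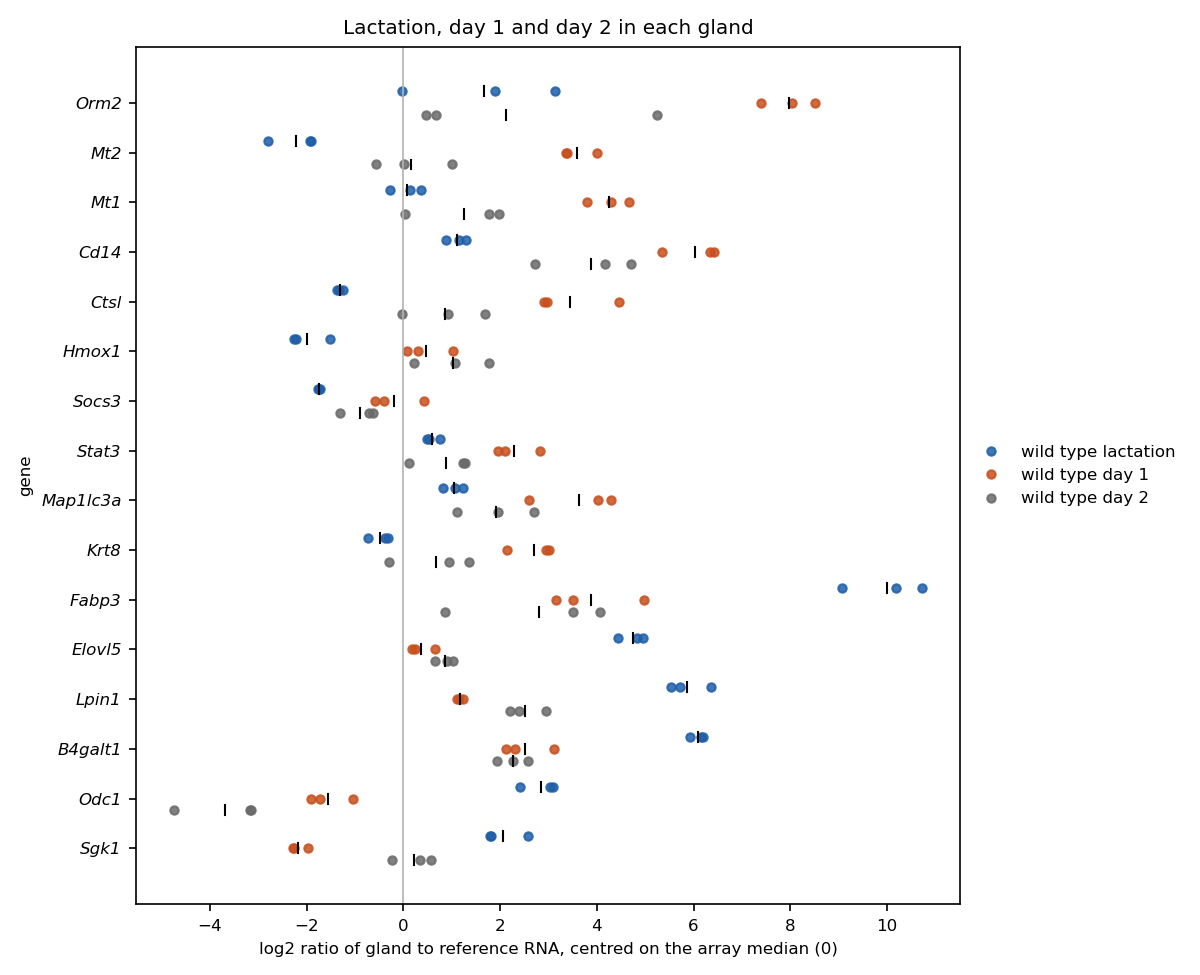
Log2 ratio to the reference (x axis, 0 is the array median) of 16 genes (y axis) in each wild type gland at lactation, day 1 and day 2, 1 point per gland and a black bar at the group mean. In Orm2 the day 1 glands lie between 7.40 and 8.50 and 2 of 3 day 2 glands lie below 1.

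The same first day was measured in E2F3 +/- glands on 6 other arrays. There 2183 probes passed (43.6%), 23.2% of all tested probes being higher and 20.3% lower. Of these, 1336 passed in the same direction in both genotypes, which is 72.65% of the wild type calls and 61.2% of the E2F3 +/- calls, with 7 in opposite directions. No probe is named E2f3 (0 probes), so the targeted gene could not be read. The responses themselves differed on 19 probes (0.379%), with the E2F3 +/- response above the wild type on 9 (0.18%) and below it on 10 (0.2%). Of the 19 probes, 9 had a single gene name, and 411 of all tested probes passed at an unadjusted p under 0.05. The count was 10 to 12 without any 1 of the lactation arrays or without day 1 replicate 1 or 3. Cyp2e1, a cytochrome P450, read 4.97, 5.90 and 6.78 in wild type lactation and 1.32, 0.51 and 3.07 at day 1, a fall of 4.25 ± 0.65, and the E2F3 +/- difference was 0.63 ± 0.65. The responses differed by 4.88 ± 0.92 (adjusted p = 0.00956). Col16a1, a minor collagen, changed by -1.75 ± 0.32 in wild type glands and by 0.84 ± 0.32 in E2F3 +/- glands, in opposite directions, a difference of 2.58 ± 0.45 (adjusted p = 0.00534).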

How the data were processed

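Gland RNA (Cy5) and a common mouse reference RNA (Cy3) were hybridised together on spotted arrays, after CsCl ultracentrifugation and amplification, per the labels' protocols. The authors deposited 1 linear ratio per probe and array, for 6267 probes on 30 arrays. Gland over reference is the likely direction, from the dyes in the labels, and the file does not state it. Scanner, background correction and normalization were not given in the sources used here.

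In this table, values of 0 or 0.01 (7.64% of values) were taken as missing. The rest were log2 transformed and each array was centred on its median. Probes with values on at least 2 of 3 arrays in each of the 10 groups were tested (5010 probes). Names came from the platform annotation, with 1 symbol for 3997 probes, several for 115 and none for 2155, and only probes with 1 symbol were named. Of 3861 probes with at least 10 ratios between 1 and 100, 106 had at least 0.9 of these at whole multiples of 0.1 (tolerance 1e-06 of a step). Their reference signal appears fixed at a lowest value, which bounds the ratio. Cel, Krt5, Adipoq, Igfbp5 and Slc28a3 are among them.

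A limma 3.58.1 model (R 4.3.3) with 1 mean per group over the 30 arrays gave 20 residual degrees of freedom. Its p values were adjusted by Benjamini-Hochberg over all tested probes, with a threshold of 0.05. Values after ± are standard errors of a log2 difference between 3 and 3 arrays unless another n is stated, and 3 mice a group limit the precision. The model was tested on simulated data. Tables and figures used Python 3.11.15, pandas 2.3.3, numpy 2.4.6 and matplotlib 3.10.9.

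The rule for named genes took the 15 largest increases and the 15 largest decreases among passing probes with values on all 6 arrays and groups that do not overlap. It added up to 4 passing members of each list per direction with the smallest adjusted p, each list's defining members, up to 6 probes of the genotype by time test, up to 6 per direction of the largest differences between days 2 and 1, and up to 5 per group of the probes measured in 1 group only. Lists count 1 probe per gene, the one with most values, then the highest mean ratio. The comparison and the lists were chosen with earlier results of these data known. Promoters came from RefSeq, matched by symbol for 3 of 3 genes. Alternatives covered centring, quantile normalization, ratios of 0.01, filters, the arrays in the fit, a replicate block, array weights, a trended robust fit, averaged probes and leaving out each array.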

Additional observations from a re-analysis of the deposited data

Results flagged for a closer look

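The first-day responses of wild type and E2F3 +/- glands differed on 7 named probes, by limma's test of the difference between the responses. Differences are given as the E2F3 +/- minus the wild type response, on the log2 scale, and no explanation was tested.

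Over all 19 probes that passed this test, the E2F3 +/- response lay above the wild type on 9 and below it on 10. Among the 7 named it lay above on 6. Col16a1, a collagen, changed by -1.75 in wild type and 0.84 in E2F3 +/- glands, a difference of 2.58 ± 0.45 (adjusted p = 0.00534). Cst3, an inhibitor of cysteine cathepsins, changed by -2.61 and -0.69, a difference of 1.92 ± 0.36 (adjusted p = 0.00956). Cyp2e1, the cytochrome P450 described above, had the widest gap among the 7, at 4.88 ± 0.92. These 3 genes passed under every alternative run.

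The calls of the remaining genes depended on single arrays. Scd1, a fatty acid desaturase, changed by -2.25 in wild type and 0.10 in E2F3 +/- glands, a difference of 2.35 ± 0.51 (adjusted p = 0.0401). Its adjusted p was 0.0505 to 0.114 without any 1 of the 6 wild type arrays, 0.0612 without centring, 0.215 with quantile normalization and 0.209 in the trended robust fit. Hebp1, a haem-binding protein, changed by -0.80 in wild type and 2.08 in E2F3 +/- glands, a difference of 2.88 ± 0.57 (adjusted p = 0.0167). Without lactation replicate 1, lactation replicate 3 or day 1 replicate 3 its adjusted p was 0.0513, 0.0552 and 0.0770. Anpep, an aminopeptidase, changed by 0.51 and 2.69, a difference of 2.18 ± 0.46 (adjusted p = 0.0375). Its adjusted p was 0.0565 in the trended robust fit, and 0.0568 to 0.114 without lactation replicate 1 or 2 or day 1 replicate 1 or 3.

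Trp53inp1 ran the other way, with 2.43 in wild type and 1.01 in E2F3 +/- glands, a difference of -1.42 ± 0.31 (adjusted p = 0.0401). Its adjusted p was 0.0556 with quantile normalization, 0.0565 in the trended robust fit, and 0.0778 to 0.127 without lactation replicate 2 or 3 or day 1 replicate 1 or 3.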

How the results depend on the processing

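Of 198 named probes that passed between day 1 and lactation, 157 passed under every alternative run and 41 lost the threshold under at least 1. Against 1839 passing probes (926 higher, 913 lower), array weights gave 3005 (1453 higher, 1552 lower). Against 19 probes for genotype by time, 92 passed with only the compared groups in the fit, 190 with array weights and 12 in the trended robust fit. Leaving out 1 wild type array gave 1373 to 1629 passing probes (708 to 816 higher, 665 to 813 lower), 10 to 17 for genotype by time and 1932 to 2408 for day 2 against day 1. E2F3 +/- arrays were not left out in turn. Of 100 counts (rises and falls of each gene list), 39 moved by over 1.5 times with array weights, 30 with only the compared groups in the fit, 19 with quantile normalization, 6 without centring and 9 to 14 with 1 array left out.

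Deviations of lactation and day 1 arrays with the same number correlated at 0.00417, -0.126 and 0.335, so the numbers were not taken to pair mice. With the replicate number as a block, 1787 probes passed (906 higher, 881 lower), 18 for genotype by time and 2485 for day 2 against day 1.

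In 7 genes the sign turned, without passing where it did. Csn3 gave 0.0357 without centring, 0.64 with quantile normalization and -0.47 to 0.40 with 1 array left out. Quantile normalization gave 0.18 for Dgat1 and 0.43 for Cish. Mcl1 gave 0.0841 without centring, 0.0156 with array weights, 0.0258 with probes averaged and -0.25 to 0.13 with 1 array left out. Array weights gave -0.0906 for Krt5, -0.0622 for Adipoq and -0.0709 for Fabp4, and averaged probes gave -0.0513 for Fabp4. With 1 array left out, Krt5 ran from -0.29 to 0.76, Adipoq from -0.26 to 0.73 and Fabp4 from -0.26 to 0.36. The causes were not tested. Signal over background was not used here, so ratios do not show which probes were dim.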
